A study of Saccharomyces cerevisiae with 24 samples.

Results

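The genes of purine nucleotide synthesis were followed in 8 adapted mutants of the budding yeast Saccharomyces cerevisiae. They are ADE4, ADE8, ADE6, ADE2, ADE1, ADE13 and ADE17 of the path to inosine monophosphate (IMP), ADE12 of the AMP branch, and IMD4 and GUA1 of the GMP branch. They were picked by gene symbol among the probes that carried a name, and all 10 were present, out of 4069 named genes, each with 2 probes. The mutants came from evolutionary engineering for tolerance to hydrolysates of lignocellulosic biomass, the sugar-containing but inhibitory liquor made from plant material. The YFP reference was used for PY-231, the GFP reference for PG-132, PG-259 and PG-353, and the DsRed reference for M1, PR-164, PR-338 and PR-438. The references are named after fluorescent proteins, and the labels give no further genotype for mutants or references. The growth protocol, the same for every sample, names YNB minimal medium with no glucose and hydrolysate at 1 g/mL, and does not say whether these were a single medium. Each mutant had 3 arrays, called replicates 1 to 3, and the series describes them as biological replicas. All 8 arrays of a replicate number lay on the same slide, so there were 3 slides and 24 arrays, with the mutant in Cy5 on replicates 1 and 3 and in Cy3 on replicate 2.

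Purine nucleotides are built on a ribose phosphate in a chain of steps that ends at IMP, which is then turned into AMP by Ade12 and Ade13 or into GMP by IMP dehydrogenase and GMP synthase. In yeast the ADE genes of this chain are known to be switched on together by the factors Bas1 and Pho2 when adenine is scarce, while GUA1 and the IMD genes serve the guanine branch.

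Values are log2 ratios of mutant over reference, centred on the median of the named probes of each array, so 0 is the typical gene of that array. The direction on replicate 2 is not stated in the labels and is not settled by the values. It was read as on the other slides, on the basis that the median deposited ratio was 2.44 to 5.41 on the arrays of replicate 2 and 0.22 to 1.41 on the others, a basis taken from the data. Values with the opposite reading, the sign of replicate 2 turned, are given beside the results. Fitted ratios are from limma, with 3 arrays per mutant and the SE of the fit, and a gene was called at a Benjamini-Hochberg adjusted p under 0.05 over all 4069 genes. How far the reference cultures vary is not part of the test, and what mutants of the same reference share cannot be told apart from that reference.

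The arrays differed in quality and slide effects were large. Between 15647 and 15737 of 15744 spots per array had a value. The Pearson correlation between the probes of a gene was -0.01 on PY-231 replicate 1 and 0.291 to 0.928 on the other 23 arrays. Arrays of the same mutant correlated across genes at a median of -0.31 between replicates 1 and 2, 0.23 between replicates 1 and 3, and -0.29 between replicates 2 and 3. Brightness recovered from the deposited values moved with the ratio, most on replicate 2. There the median ratio of genes in the 85th to 88th brightness percentile averaged -0.32 over the 8 arrays, that of the 88th to 91st percentile -0.73, and that of the 95th to 100th percentile -2.29. On replicates 1 and 3 the 95th to 100th percentile moved the other way, averaging 0.98 and 1.00. Single arrays there ran from 0.01 to 1.89 and from -0.56 to 2.60. The 88th to 91st percentile averaged -0.10 and -0.08 on these slides.

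GUA1 (YMR217W), which encodes GMP synthase, the enzyme of the last step to GMP, was the member with the lowest ratio in the fit of each of the 8 mutants. It was called lower in PR-438 and PR-164 and in the mean of the 8 mutants. With the opposite reading of replicate 2 its ratio was above 0 in all 8 mutants, from 0.29 in PR-164 to 1.32 in PY-231. The remaining members stayed close to 0 in that mean except ADE8, which was called lower by a small amount. PR-438 was the mutant in which all 10 members lay below 0, on all 3 arrays as read here.

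**Figure D1:**
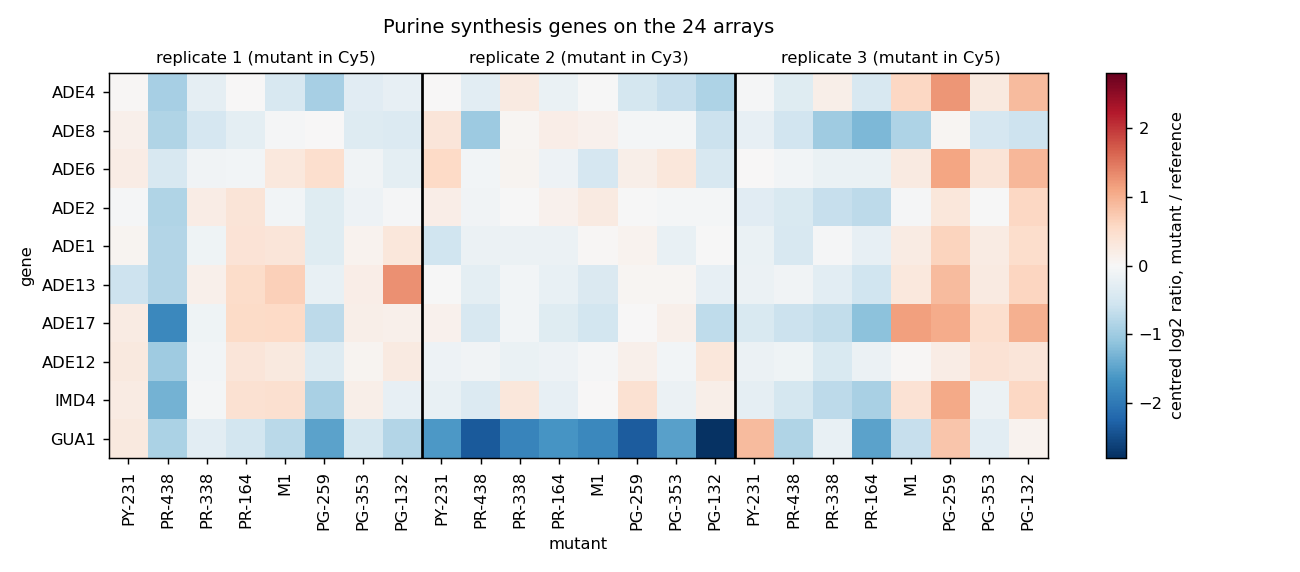
Centred log2 ratio of mutant over reference for the 10 members (rows, in pathway order) on the 24 arrays (columns, grouped by replicate and then by reference). GUA1 is dark blue on all 8 arrays of replicate 2, where it lies between -2.77 and -1.52, and the column of PR-438 is blue for all members on each replicate.

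GUA1 lay below 0 on 20 of 24 arrays, on 7 of 8 arrays of replicate 1, 8 of 8 of replicate 2 and 5 of 8 of replicate 3. In PR-438 it had -0.89, -2.36 and -0.85 on replicates 1, 2 and 3, and in PR-164 it had -0.51, -1.65 and -1.49. In M1 the values were -0.76, -1.79 and -0.65, and in PR-338 they were -0.30, -1.84 and -0.20. These 4 mutants share the DsRed reference, and none of their 12 GUA1 values was above 0. Among the mutants with the GFP reference, PG-259 had -1.50, -2.33 and 0.77, PG-353 had -0.50, -1.52 and -0.29, and PG-132 had -0.82, -2.77 and 0.09. PY-231, with the YFP reference, had 0.26, -1.60 and 0.88. The value of replicate 2 was the lowest in every mutant, and the values above 0 were PY-231 on replicates 1 and 3 and PG-259 and PG-132 on replicate 3.

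The fitted GUA1 ratio was -1.63 ± 0.32 in PR-438 (limma, adjusted p = 0.0387). In PR-164 it was -1.48 ± 0.32 (limma, adjusted p = 0.0454), and no other member was called in a single mutant. GUA1 did not pass in PG-132 (-1.42, adjusted p = 0.081), M1 (-1.33, adjusted p = 0.0807), PG-259 (-1.28, adjusted p = 0.2), PR-338 (-1.04, adjusted p = 0.201), PG-353 (-1.03, adjusted p = 0.69) or PY-231 (-0.41, adjusted p = 0.998), all by limma with the same SE. Of all genes tested, 0.295% were called in PR-438 and 0.492% in PR-164. The share was 0.221% in PG-132, 0.246% in M1, 0.0492% in PG-259, 0.123% in PR-338, 0.0246% in PG-353 and 0% in PY-231, where 103 genes had an unadjusted p under 0.05. Neighbours in the order of the GUA1 ratios from PR-438 up to PG-353 lay 0.015 to 0.23 apart, less than the SE of a single ratio, and PY-231 stood 0.61 above PG-353, a gap that did not pass either. The calls in PR-438 and PR-164 depended on the slides. Without replicate 2 the ratios were -0.87 (adjusted p = 0.585) and -0.998 (adjusted p = 0.278) by limma, and without replicate 1 they were -1.60 (adjusted p = 0.268) and -1.57 (adjusted p = 0.234). With no dye term, which leaves what replicate 2 shares in the residual error, they were -1.37 ± 0.58 (adjusted p = 0.565) and -1.215 ± 0.58 (adjusted p = 0.884) by limma. Without replicate 3 PR-164 had -1.08 (adjusted p = 0.0892), while GUA1 was called in 4 mutants, PR-438, PG-259, PG-132 and M1. After quantile normalization PR-438 kept its call (-1.58, adjusted p = 0.045) and PR-164 lost it (-1.14, adjusted p = 0.457). With the replicate number as a block GUA1 was also called in M1 (limma, adjusted p = 0.0485). Arrays of the same reference alone also gave a call in M1 (-1.27, limma, adjusted p = 0.0309). With the opposite reading of replicate 2 GUA1 was called higher in PG-132 (1.08, limma, adjusted p = 0.0498).

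**Figure D2:**
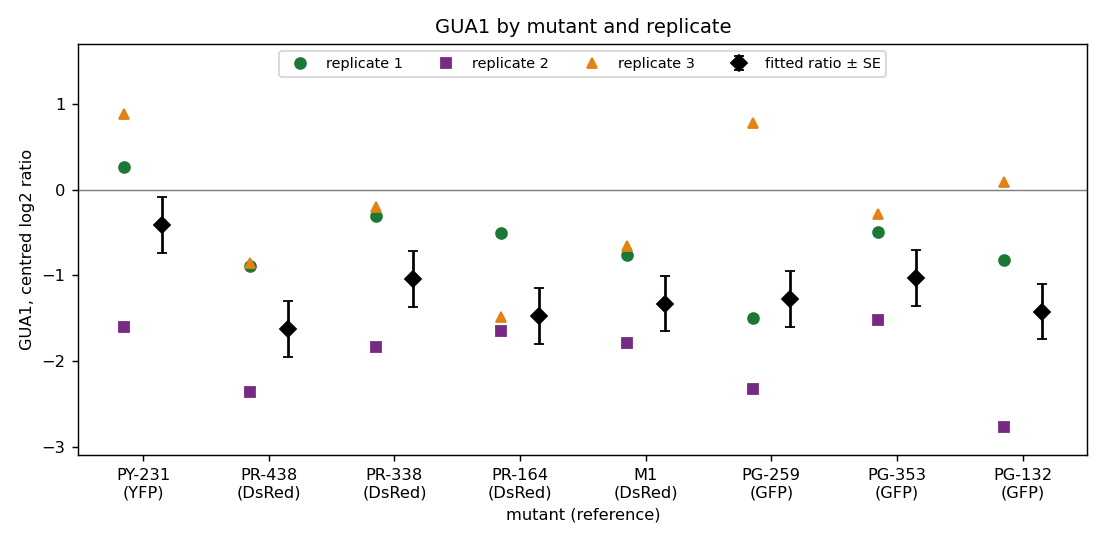
GUA1 in each mutant: centred log2 ratio on replicates 1, 2 and 3 (coloured symbols) and the fitted ratio with its SE (black diamonds), with the reference in brackets. Replicate 2 is the lowest point in all 8 mutants, and PY-231 has the fitted ratio nearest to 0 at -0.41.

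In the mean of the 8 mutants GUA1 fell by 1.20 ± 0.12 (limma, adjusted p = 2.51e-06), to 0.435 of the reference, the 7th lowest value of the 4069 genes. In that comparison 13.3% of all genes were called, 455 lower and 85 higher. The slide means of GUA1 were -0.63 ± 0.51 on replicate 1, -1.98 ± 0.45 on replicate 2 and -0.22 ± 0.80 on replicate 3 (SD, n = 8 mutants each). The SE of the fit does not hold the spread between replicate 2 and the other slides, because the dye term takes up what replicate 2 shares. In this mean the dye term gives replicate 2 the same weight as replicates 1 and 3 together. With no dye term, which leaves that spread in the residual error, the mean was -0.94 ± 0.21 (limma, adjusted p = 0.0189). Both fits take the 8 arrays of a slide as independent. Deviations within slides 1, 2 and 3 correlated at a median of 0.379, 0.753 and 0.308, so neither SE holds the full spread between slides. Without replicate 2 the mean was -0.42 ± 0.15 (limma, adjusted p = 0.0558), and with the opposite reading of replicate 2 it turned to 0.78 ± 0.13 (adjusted p = 8.54e-05). The deposited GUA1 ratios on replicate 2 were 0.529 to 1.77 for single probes, on arrays whose median ratio was 2.44 to 5.41. The probes of GUA1 correlated at 0.895 over the 24 arrays and lay more than 1 apart on 2 of them, at most 1.56 on PR-338 replicate 3.

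GUA1 was also the brightest member, at the 89.2nd percentile of brightness, inside the range where ratios on replicate 2 ran low. Genes of like brightness can be set beside it. Within 1.5 percentile points there were 123 genes, GUA1 included, with a median of -0.64 on replicate 2, -0.04 on replicate 1 and -0.06 on replicate 3. GUA1 was the 2nd lowest of them on replicate 2, the 11th lowest on replicate 1 and the 39th lowest on replicate 3. It was also the 2nd lowest in the mean of the 8 mutants, at -1.20 beside a median of -0.36. After a loess on brightness within each array the mean of the 8 mutants was -0.78 ± 0.10 (limma, adjusted p = 0.000192), and with a narrower span -0.79 ± 0.10 (adjusted p = 0.000326). With the narrower span the slide means were -0.59, -1.19 and -0.18, and GUA1 was still below 0 on 8 of 8 arrays of replicate 2. No single mutant was called for GUA1 after either loess. The window and the narrower span were chosen after the values were seen.

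**Figure D3:**
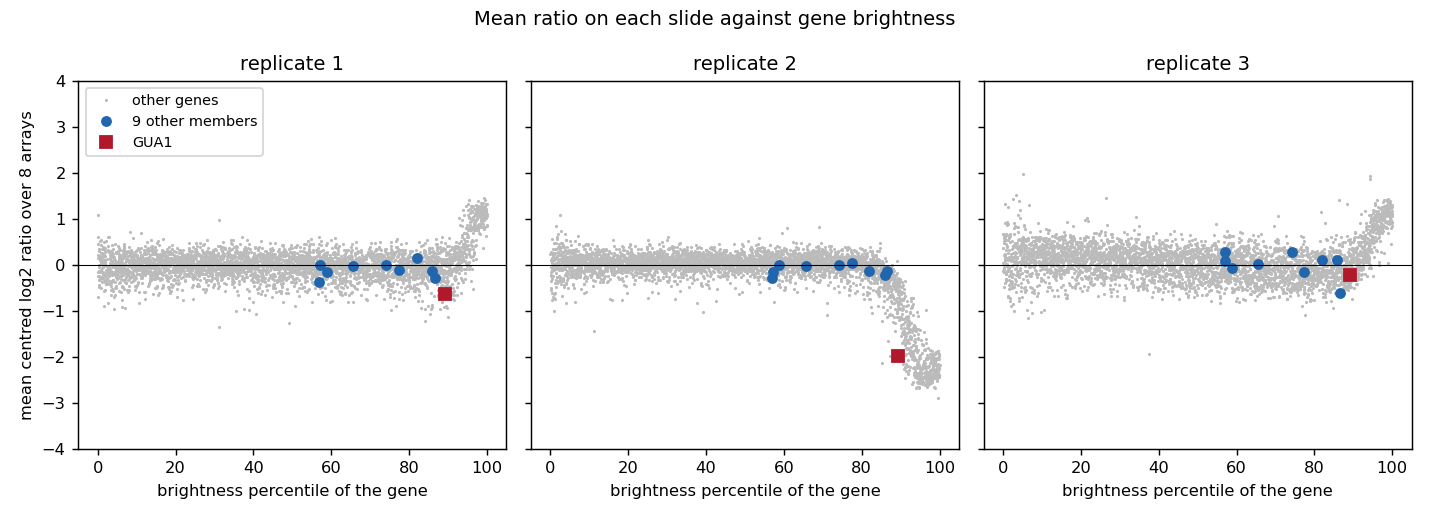
Mean centred log2 ratio over the 8 arrays of each replicate (vertical axis) against the brightness percentile of the gene (horizontal axis), for the named genes, with GUA1 as a red square and the 9 other members as blue circles. On replicate 2 the brightest genes bend to about -2.29, and GUA1 at -1.98 lies below most genes of its own brightness. On replicates 1 and 3 the brightest genes bend the other way, to about 0.98 and 1.00.

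IMD4 (YML056C), an IMP dehydrogenase that makes the substrate of GMP synthase, was not called in any mutant. Its ratio was -0.06 ± 0.11 in the mean of the 8 mutants (limma, adjusted p = 0.756), and its slide means were -0.15, -0.01 and -0.06. The mean was -0.049 with replicate 2 turned. PR-438 had -1.31, -0.37 and -0.49 on the 3 replicates, with a fitted -0.71 ± 0.30 (limma, adjusted p = 0.307), and was the mutant with IMD4 lowest, also with replicate 2 turned, at -0.46. The 24 values ran from -1.31 on PR-438 replicate 1 to 1.06 on PG-259 replicate 3. GUA1 was below IMD4 in the fit of all 8 mutants, but these are ratios of different probes and not levels.

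The other IMP dehydrogenase genes with a named probe were IMD2 and IMD3. The IMD genes are close copies of each other, and how far their probes tell them apart was not tested. IMD3 had 0.04 ± 0.11 in the mean of the 8 mutants (limma, adjusted p = 0.838). IMD2, whose transcription is known to respond to guanine nucleotide shortage in yeast, had 0.31 ± 0.11 (limma, adjusted p = 0.0688). Its highest ratio was in PR-438, at 1.51, 0.75 and 1.26 on the 3 replicates, with a fitted 1.16 ± 0.29 (adjusted p = 0.0691), or 0.57 with replicate 2 turned (adjusted p = 0.496). In the same arrays IMD4 lay below 0, and neither gene passed. IMD2 was also above 0 on all 3 arrays of PR-338 and PR-164, which share the DsRed reference with PR-438. It was fitted there at 0.60 and 0.54, or 0.054 and 0.23 with replicate 2 turned, and did not pass. M1, with the same reference, had a fitted -0.16. IMD2 is on chromosome VIII in the R64 gene catalogue, and the 187 genes of that chromosome had a median of 0.28 in PR-438 against -0.02 for the other 3882 genes. The median of that chromosome was 0.01 in PR-338 and -0.05 in PR-164. The part of the chromosome in the IMD2 ratio was not tested. IMD2 and IMD3 were named after their values were seen.

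ADE12 (YNL220W), adenylosuccinate synthase, opens the AMP branch, and ADE13 (YLR359W), adenylosuccinate lyase, closes it and also acts on the way to IMP. Neither was called. ADE12 had -0.02 ± 0.07 in the mean of the 8 mutants (limma, adjusted p = 0.874). Its fitted ratios went from -0.41 in PR-438 to 0.30 in PG-132, each with an SE of 0.18. With replicate 2 turned they went from -0.34 in PR-438 to 0.19 in PG-353, with a mean of 0.0078. ADE13 had -0.01 ± 0.10 (adjusted p = 0.967), from -0.45 in PR-438 to 0.50 in PG-132 (SE 0.26). With replicate 2 turned the mean of ADE13 changed sign to 0.14 (adjusted p = 0.278), and its ratios went from -0.23 in PY-231 to 0.71 in PG-132. The highest ADE13 value was 1.28 on PG-132 replicate 1, where its probes lay 2.23 apart, the largest disagreement of any member.

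On the path to IMP, ADE4 (YMR300C) encodes the amidotransferase of the first committed step. It had -0.16 ± 0.12 in the mean of the 8 mutants (limma, adjusted p = 0.394) and was not called in any mutant. Without replicate 3 the mean was -0.33 ± 0.08 and was called (limma, adjusted p = 0.0223), while it was 0.0057 without replicate 1 (adjusted p = 0.983) and 0.11 with replicate 2 turned (adjusted p = 0.487). Its arrays split by slide, with means of -0.38 on replicate 1, -0.28 on replicate 2 and 0.29 on replicate 3. In PG-259 it ran from -0.93 on replicate 1 and -0.49 on replicate 2 to 1.23 on replicate 3, its highest value.

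ADE8 (YDR408C), the transformylase that adds the first formyl group, was the other member called in the mean of the 8 mutants. It fell by 0.29 ± 0.08 (limma, adjusted p = 0.0221), a ratio of 0.82, and lay below 0 on 17 of 24 arrays. Unlike GUA1, its lowest slide was replicate 3, with a mean of -0.61 ± 0.42, against -0.28 ± 0.32 on replicate 1 and -0.13 ± 0.45 on replicate 2 (SD, n = 8 mutants each). On replicate 3 PR-164 had -1.27, PR-338 had -1.001 and M1 had -0.85, while PG-259 had 0.05. No single mutant passed, and the lowest was PR-438 at -0.85, -1.02 and -0.53, fitted at -0.75 ± 0.21 (limma, adjusted p = 0.126). On PR-438 replicate 2 the ADE8 probes lay 1.57 apart, their largest disagreement. With replicate 2 turned PR-438 had -0.026 and the lowest mutant was PR-164 at -0.48. The call in the mean did not hold after a loess on brightness, which gave 0.016 (adjusted p = 0.912), or with the narrower span, which gave -0.07 (adjusted p = 0.536). It was also lost without replicate 1 (-0.37, adjusted p = 0.0534), without replicate 3 (-0.20, adjusted p = 0.0518) and with the opposite reading of replicate 2 (-0.16, adjusted p = 0.205), all by limma. Without replicate 2 it was -0.44 (limma, adjusted p = 0.00852), where 660 of all genes were called higher and 529 lower.

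ADE6 (YGR061C), ADE2 (YOR128C) and ADE1 (YAR015W) encode the synthetase, carboxylase and SAICAR synthetase of the middle steps, and loss of ADE2 or ADE1 is known for turning colonies red. None was called, and their means over the 8 mutants were 0.07 ± 0.08, -0.05 ± 0.08 and -0.05 ± 0.07 (limma, adjusted p = 0.629, 0.71 and 0.627). With replicate 2 turned they were 0.067, -0.088 and 0.092, so ADE1 changed sign. ADE6 had its highest ratio in PG-259, at 0.46, 0.16 and 1.10 on the 3 replicates, fitted at 0.55 ± 0.22 (adjusted p = 0.467). ADE6 is also the member whose probes followed each other least, at a correlation of 0.356, and they lay 1.77 apart on PG-259 replicate 1. ADE2 and ADE1 were both lowest in PR-438, at -0.43 (adjusted p = 0.372) and -0.51 (adjusted p = 0.212), and at -0.37 and -0.34 with replicate 2 turned. After quantile normalization between arrays ADE1 was called lower in PR-438 (-0.82 ± 0.19, limma, adjusted p = 0.0467).

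ADE17 (YMR120C), which carries out the last steps to IMP, had the widest range of fitted ratios over the 8 mutants among the members. Its fitted ratios ran from -0.98 ± 0.37 in PR-438 (limma, adjusted p = 0.25) to 0.36 ± 0.37 in M1 (adjusted p = 0.704), with -0.12 ± 0.14 in the mean (adjusted p = 0.601). With replicate 2 turned they ran from -0.62 in PR-438 to 0.78 in M1, and the mean changed sign to 0.10 (adjusted p = 0.604). In PR-438 it had -1.81, -0.44 and -0.60, all below 0. In M1 it had 0.55, -0.51 and 1.14, and in PR-164 it had 0.53, -0.34 and -1.14, so arrays of the same mutant pointed in different directions. The ADE17 probes lay 1.69 apart on M1 replicate 3. Its isozyme ADE16, named after its values were seen, had 0.11 ± 0.05 in the mean (adjusted p = 0.151).

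**Figure D4:**
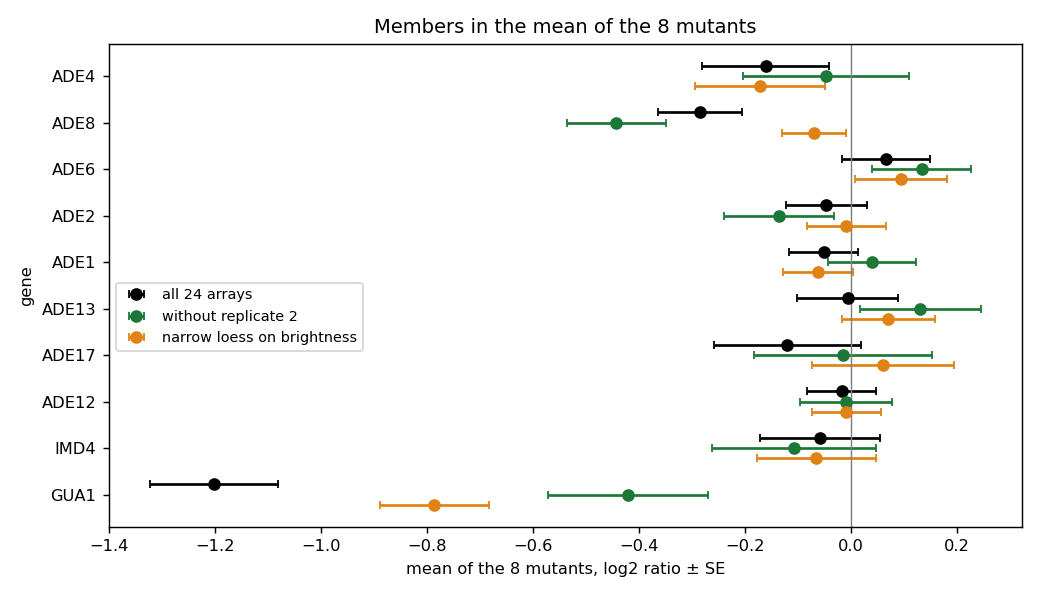
Mean of the 8 mutants for each member (log2 ratio with SE) from all 24 arrays, without replicate 2, and after the narrower loess on brightness. GUA1 stands below the others with all arrays, at -1.20, and is below 0 in the other fits drawn, at -0.42 and -0.79, while the opposite reading of replicate 2, not drawn, gives 0.78.

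As a group the members had a median of -0.06 in the mean of the 8 mutants, beside 0.00 for all 4069 genes. Of the 10 members 2 were called, both lower, where 13.3% of all genes were called, 455 of 540 lower. In PR-438 their median was -0.53, against -0.01 for all genes. In the other mutants the members' median lay between -0.19 in PR-164 and 0.15 in PG-132. In PR-438 all 30 member values on the 3 arrays were below 0, where 48.7% of all gene values on those arrays were. In the others 12 to 23 of 30 were below 0, with 23 in PR-338, 21 in PR-164, 16 in PG-353, 15 in PY-231 and in PG-132, 13 in M1 and 12 in PG-259. Replicate 1 of PR-438 was the array with the lowest value for 7 of the 10 members. Without replicate 1 all 10 fitted ratios of PR-438 were still below 0 and their median was -0.31. After the narrower loess all 10 were below 0 with a median of -0.47, and with the opposite reading of replicate 2 it was 9 of 10 with a median of -0.31, and 20 of the 30 array values were then below 0, against 9 to 21 of 30 in the others. Of the 10 members, 7 had an unadjusted p under 0.05 in PR-438, as had 541 of the 4069 genes, and GUA1 alone was called, with ADE1 added after quantile normalization.

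No difference of a member between mutants passed a test. Among the 4 mutants with the DsRed reference no member passed the limma F test, with a lowest adjusted p of 0.916, and 0% of all genes did, although 226 had an unadjusted p under 0.05. Among the 3 mutants with the GFP reference the lowest adjusted p of a member was 1.00 and 0% of all genes passed, with 41 at an unadjusted p under 0.05. All 280 differences of 10 members between 28 pairs of mutants were also tested in the same fit, each adjusted over all genes of its pair. Most of these pairs do not share a reference, and their differences cannot be told apart from those of the references. None passed, 22 had an unadjusted p under 0.05, and the lowest adjusted p was 0.288. The share of all genes in these pairs is not given here, so the 22 cannot be read as a trait of the members. In 13 of the 280 the mutants lay on opposite sides of 0 on all arrays, 3 of them with a shared reference. The share of all genes that did so is not given either, so the 13 cannot be read as a trait of the members. The lowest adjusted p was that of ADE1 in PR-438 against M1, which differed by -0.67 ± 0.25. PR-438 had -0.81, -0.17 and -0.44, M1 had 0.34, 0.02 and 0.24, and the groups did not overlap, though they do with replicate 2 turned. IMD4 and ADE17 had differences of -1.01 and -1.34 in that pair (limma, adjusted p = 0.314 and 0.289).

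Members rose and fell together from array to array within a slide. After the mean of each slide was subtracted, the 36 pairs of the 9 members other than GUA1 correlated over the 24 arrays at a median Pearson r of 0.658, from 0.259 to 0.876. GUA1 followed them less closely, at a median of 0.441 and a range of 0.171 to 0.637. In PG-259 8 of 10 members were below 0 on replicate 1 and 0 of 10 on replicate 3, with medians of -0.36 and 0.83. These points share arrays, slides and references, and the correlations are descriptions. Pairs of other genes were not set beside them, so the values cannot be read as particular to the members.

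The genes whose ratios were most like GUA1 were PAB1 (r = 0.894), which encodes the poly(A)-binding protein, LYS1 (0.885) of lysine synthesis, VRG4 (0.882), a Golgi GDP-mannose transporter, FEN1 (0.87) of fatty acid elongation and PRY2 (0.87). The measure was Pearson's r over 24 arrays after each slide's mean was subtracted, among 4036 genes with a value on all arrays. All of them lay between the 86.5th and the 91.5th brightness percentile, close to GUA1. After the loess on brightness the same correlations were 0.691, 0.777, 0.778, 0.783 and 0.745. None of these genes belongs to purine synthesis.

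Beyond the members, 38 of 42 listed genes of purine supply, salvage, use and regulation were measured. None of the 38 was called in a single mutant by limma, where 0 to 13 of them had an unadjusted p under 0.05, the most in PR-438. With replicate 2 turned there were 21 calls of the 38 genes in single mutants. Over all genes the calls of that reading ran from 0 in PG-353 to 301 higher and 171 lower in M1. In the mean of the 8 mutants 9 of 38 were called, all lower, where 13.3% of all genes were called, 455 of 540 lower. They were HIS4 of histidine synthesis (-1.08 ± 0.16), ADE3, which supplies carbon units bound to folate (-0.86 ± 0.14), the adenylate kinase ADK1 (-0.74 ± 0.16), the general amino acid control activator GCN4 (-0.74 ± 0.16), and the ribonucleotide reductase subunit RNR2 (-0.71 ± 0.16). The others were the purine-cytosine permease FCY2 (-0.51 ± 0.11), RNR4 (-0.35 ± 0.10), the adenosine kinase ADO1 (-0.34 ± 0.08) and GCV3 of the glycine cleavage system (-0.32 ± 0.08). Adjusted p values by limma were 8.14e-05 for HIS4, 0.000227 for ADE3 and 0.00362 to 0.024 for the rest. The median of the 38 was -0.07.

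All 9 of these genes lay above the 85th brightness percentile, and all had their lowest slide mean on replicate 2. With the opposite reading of replicate 2 all 9 turned above 0, from 0.35 for ADO1 to 1.63 for GCN4. ADK1 had slide means of 0.51, -2.29 and 1.10, GCN4 had 0.94, -2.37 and 0.83, and RNR2 had 0.76, -2.29 and 0.99. Without replicate 2 these genes turned to 0.81, 0.89 and 0.88 (limma, adjusted p = 0.0214, 0.0108 and 0.013). Of all genes 660 were then called higher and 529 lower. Without replicate 2 HIS4 had -0.024 (adjusted p = 0.939) and FCY2 -0.04 (adjusted p = 0.798), RNR4, GCV3 and ADO1 had 0.23, 0.036 and 0.013 and did not pass, and ADE3 had -0.50 and was still called (adjusted p = 0.0365). ADE3 was low on both replicates 1 and 2, at -0.96 and -1.23, with -0.04 on replicate 3. After the loess on brightness 2 of the 38 genes were called, ADE3 lower (-0.50, limma, adjusted p = 0.0447) and the nucleoside diphosphate kinase YNK1 higher (0.61, adjusted p = 0.00968). Of all genes 66 were then called higher and 111 lower. With the narrower span 3 were called, ADE3 lower at -0.56 (adjusted p = 0.0282), YNK1 higher at 0.67 (adjusted p = 0.00253) and GCV3 higher at 0.30 (adjusted p = 0.0248). Of all genes 45 were then called higher and 88 lower. With no dye term ADE3 alone of the 38 was called (-0.74, adjusted p = 0.018), where 87 of all genes were called higher and 149 lower. The regulators of the ADE genes did not pass, with BAS1 at -0.06 ± 0.08 (adjusted p = 0.628) and PHO2 at 0.18 ± 0.06 (adjusted p = 0.0546), and like YNK1 they were named after their values were seen.

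**Figure D5:**
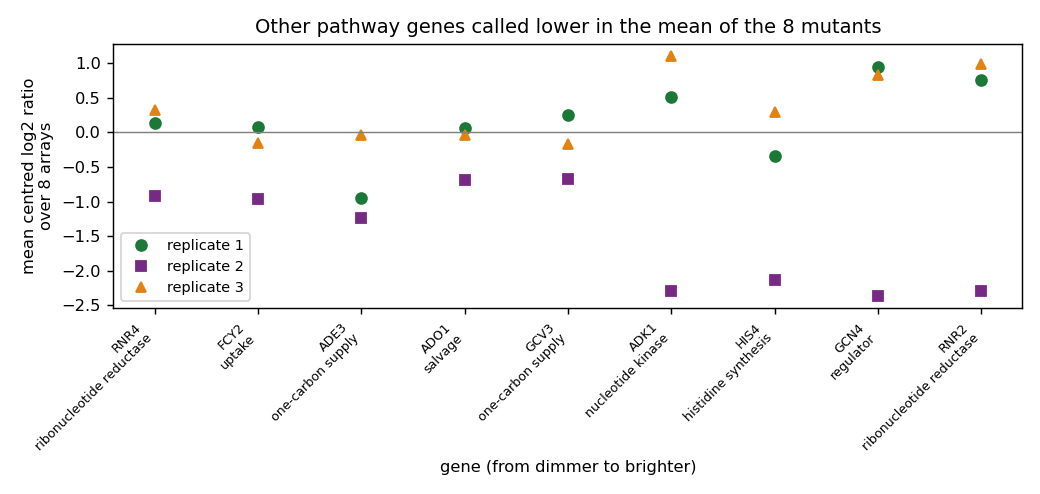
Slide means (centred log2 ratio over 8 arrays) of the 9 other pathway genes called lower in the mean of the 8 mutants, ordered by brightness. For each gene the purple square of replicate 2 is lowest, down to -2.37 for GCN4, while ADK1, GCN4 and RNR2 lie above 0 on replicates 1 and 3.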

How the data were processed

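RNA of 8 mutants was compared with that of fluorescent references on 24 two-colour arrays. The authors deposited a table of scores that reads from its values as linear channel ratios, unscaled between arrays; some are at or below 0 (2.14% to 8.28% of an array's spots), and the steps behind them are not given in the sources used here. Values above 0 were put on the log2 scale and centred per array on the median of 8152 probes with a gene symbol, and a gene is the mean of its probes (the members had both probes on 23 or 24 arrays). Symbols were brought to the R64 gene catalogue, 129 through a synonym and 4 unmatched. Brightness was recovered by writing values as quotients of whole numbers. limma 3.58.1 (R 4.3.3; lmFit, eBayes) fitted 1 coefficient for each mutant plus a dye term (residual df 15, median residual SD 0.38). In simulated data for PR-438 with 4069 genes, 97% of changes of size 2 (log2) and 65% of size 1 were recovered, with 5 false calls. The simulated noise was independent between arrays, with a dye term and no other slide effect. The real arrays share slide effects, so these figures do not carry over to them. Figures used matplotlib 3.10.9 in Python 3.11.15. Signal over background stands in for depth, and precision is set by the number of arrays. A mutant kept its place on all 3 slides, and the effects of place and mutant cannot be told apart.

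Members and gene lists were chosen with earlier results of these data known. Named genes were the 10 members, the pathway genes called in any mutant or in the mean, and the 5 genes most like GUA1. The replicate numbers stand for slides in the labels, which pairs the samples: deviations correlated at a median of 0.379, 0.753 and 0.308 within slides 1, 2 and 3 and at -0.296 between slides. Alternatives were the opposite sign on replicate 2, no dye term, a replicate block, each replicate left out, loess, quantile normalization, other centring, probe rules and arrays of the same reference. The fit without replicate 2 has no dye term, because every mutant is then in Cy5.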

Additional observations from a re-analysis of the deposited data

How the results depend on the processing

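With the sign of replicate 2 turned GUA1 had 1.32 in PY-231, 0.61 in PR-438, 0.84 in PR-338, 0.93 in PG-259, 0.65 in PG-353, 1.08 in PG-132, 0.29 in PR-164, 0.53 in M1 and 0.78 in the mean of the 8 mutants. In that mean ADE3 had 0.37, ADK1 1.55, ADO1 0.35, FCY2 0.47, GCN4 1.63, GCV3 0.36, HIS4 1.05, RNR2 1.58 and RNR4 0.58, and the median of the members was 0.079. ADE4, ADE17, ADE1 and ADE13, not called, changed sign in the mean, to 0.11, 0.10, 0.092 and 0.14, and ADE12 to 0.0078. Member calls in single mutants were then 1 in place of 2, GUA1 higher in PG-132 (1.08, adjusted p = 0.0498 by limma). Those in the mean were 1 in place of 2, GUA1 higher, and pathway calls in single mutants were 21 in place of 0. Calls over all genes rose as well, to 301 higher and 171 lower in M1 and to 782 higher and 505 lower in the mean. Leaving out 1 replicate gave 0 to 4 member calls in single mutants and 1 to 2 in the mean. The calls in the mean were GUA1 without replicate 1, ADE8 without replicate 2, and GUA1 and ADE4 without replicate 3 (ADE4 -0.33, adjusted p = 0.0223 by limma). Of all genes 110 were called higher and 324 lower without replicate 1, 660 and 529 without replicate 2, and 60 and 467 without replicate 3. Over the same fits GUA1 ran from -0.67 to 0.57 in PY-231, and in the mean ADK1 ran from -0.89 to 0.81, ADO1 from -0.36 to 0.013, GCN4 from -0.77 to 0.89, GCV3 from -0.43 to 0.036, RNR2 from -0.76 to 0.88 and RNR4 from -0.40 to 0.23. HIS4 ran from -1.24 to -0.024, FCY2 from -0.57 to -0.04 and ADE3 from -1.09 to -0.50. After the loess on brightness 0 member calls in single mutants, 1 in the mean and 2 pathway calls in the mean were left, and ADE8 had 0.016, ADO1 0.091, GCV3 0.20 and RNR2 0.033. With the narrower span, added after seeing the data, the counts were 0, 1 and 3, with ADO1 at 0.097 and GCV3 at 0.30. With no dye term there were 0 member calls in single mutants and 1 pathway call in the mean in place of 9. There was 1 member call in single mutants with probes above 0 on all arrays or with values at or below 0 set to the 1st percentile. Quantile normalization kept 2 member calls in single mutants but not the same pair, with ADE1 in PR-438 (-0.82, adjusted p = 0.0467 by limma) in place of GUA1 in PR-164. Arrays of the same reference alone gave 3 pathway calls in single mutants. They also gave 3 member calls in place of 2, adding GUA1 in M1 (-1.27, adjusted p = 0.0309 by limma). The replicate block, a paired fit, gave 3 member calls in single mutants in place of 2, adding GUA1 in M1 (-1.33, adjusted p = 0.0485 by limma), and changed no other member call. The cause of these changes was not tested. Of 80 member ratios in single mutants, 52 kept their direction without replicate 3, 69 without replicate 2 and 73 without replicate 1. The probes of a gene correlated at -0.01 on PY-231 replicate 1. Without that array, a choice made after seeing the data, 80 of 80 kept their direction.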
